A study of Mus musculus with 9 samples.

Results

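Eicosanoids are short-lived lipid signals made from arachidonic acid. Cyclooxygenases turn it into prostanoids, and lipoxygenases turn it into hydroxy fatty acids and leukotrienes. In skin the lipoxygenase family has separate roles: members expressed in keratinocytes oxidise lipids of the water barrier, while the leukotriene enzymes are known mainly from myeloid and mast cells. The genes described here were 8 members of this pathway, taken by gene symbol from the annotation of a mouse cDNA microarray. They were the epidermal lipoxygenases Alox12e and Alox12b, the leukotriene genes Alox5, Alox5ap and Ltc4s, and the prostanoid genes Ptgs1, Ptgs2 and Ptges. Of the 42624 features on the array, 11 carried one of these names, and they covered 7 of the 8 genes. No feature was annotated as Ptgs1, which encodes the constitutive cyclooxygenase, and it was not analysed here. All 7 remaining genes had at least 1 feature with a value on all 9 arrays and were among the 8644 genes tested. The set was selected on its lymphedema minus normal differences, so that contrast is given as description, with standard errors and no p-value.

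Tail skin came from female hairless SKH-1 mice in 3 states at day 14. In lymphedema the tail skin had been incised around its circumference and the lymphatic trunks, marked with methylene blue, had been cauterised. Sham mice had the incision and the dye without cautery, and normal mice had no surgery. Each state was represented by 3 arrays, each made from a pool of 3 mice, and every array compared tail skin with RNA from whole mouse embryos. The wound is shared by lymphedema and sham mice, so by surgery lymphedema and sham skin differ in the cautery, whereas lymphedema minus normal also holds the incision. Values are log2 ratios of tail skin over the embryo reference, centred on each array's median. The log base was not given in the sources used here and was taken as 2. Another base would rescale every difference and fold without changing a sign or a test.

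Across the whole table, 29 embryo genes had medians of −4.23 to −3.73 on the 9 arrays and 15 adult skin genes had medians of 2.18 to 3.14, which fixed the direction of the ratio. Between 1.34% and 12.6% of features lacked a value on an array. Missing values separated the 3 normal arrays and lymphedema array 1 from the other 5 arrays: 186 features had values on all of the first set and none of the second, and 1 feature had the reverse pattern. All of sham and all of normal therefore lay in different array sets, and their difference cannot be told apart from the set. Lymphedema lay in both sets, array 1 with normal and the others with sham. Both of its contrasts therefore also carry part of the set. Sham array 3 stood with the lymphedema arrays in its leukocyte genes. A list of 13 measured leukocyte genes had a median log2 ratio of 0.564 to 0.901 on the lymphedema arrays, −0.846, −0.0940 and 0.555 on the sham arrays and −0.745 to −0.413 on the normal arrays, and the highest of the sham values was that of sham array 3.

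RefSeq promoters (build GRCm38.p6, from 250 bases before to 50 bases after the annotated start) were present for 7 of the 8 genes. Those of Alox12e, Alox12b and Ltc4s are shown because these were the genes whose lymphedema arrays all lay below both other states. Capitals mark GGGCGG, the Sp1-type GC box, or CCGCCC where it lies on the opposite strand. Alox12e lies at chr11:70322481-70322780 on the minus strand, Alox12b at chr11:69156822-69157121 on the plus strand and Ltc4s at chr11:50238483-50238782 on the minus strand.
Alox12e: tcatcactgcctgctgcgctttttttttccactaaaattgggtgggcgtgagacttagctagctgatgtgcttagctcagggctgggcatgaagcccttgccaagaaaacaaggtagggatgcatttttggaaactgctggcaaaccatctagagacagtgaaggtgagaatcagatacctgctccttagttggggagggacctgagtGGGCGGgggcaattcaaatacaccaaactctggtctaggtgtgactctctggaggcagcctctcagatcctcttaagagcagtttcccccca
Alox12b: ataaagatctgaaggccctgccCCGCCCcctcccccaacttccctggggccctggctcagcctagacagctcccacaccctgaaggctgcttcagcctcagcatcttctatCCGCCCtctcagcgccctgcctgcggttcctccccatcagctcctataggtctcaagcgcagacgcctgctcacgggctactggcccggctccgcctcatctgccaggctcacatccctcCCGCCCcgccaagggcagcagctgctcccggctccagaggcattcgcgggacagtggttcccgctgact
Ltc4s: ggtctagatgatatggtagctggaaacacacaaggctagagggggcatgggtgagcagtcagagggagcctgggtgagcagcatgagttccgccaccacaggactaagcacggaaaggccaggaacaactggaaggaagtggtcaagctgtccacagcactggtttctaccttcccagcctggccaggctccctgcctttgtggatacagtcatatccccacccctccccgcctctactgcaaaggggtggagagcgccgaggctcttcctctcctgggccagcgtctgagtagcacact
The strings searched, on both strands, were TATAAA (the TATA box), TGANTCA (the AP-1 site), GAGGAAGT (an ETS-type site) and GGGCGG. Alox12e had 1 GGGCGG, with its first base at −42 from the start, Alox12b had 3 on the opposite strand, at −228, −139 and −19, and Ltc4s had none of the 4 strings in this window. A match is a description of the letters and not a bound site. GGGCGG occurs in 35.7% of 32851 promoter windows of the same length, TATAAA in 13.6%, TGANTCA in 7.81% and GAGGAAGT in 3.20%. In the RefSeq gene order Alox12e stands between Alox12 and Alox15, and Alox12b between Aloxe3 and Alox8, both on chromosome 11. Ptgs2 on chromosome 1 neighbours Pla2g4a, the cytosolic phospholipase that releases its substrate.

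Both epidermal lipoxygenases were lower in lymphedema than in either other state on every array. Alox12e encodes the epidermal-type lipoxygenase of the mouse. Its log2 ratios were −0.38, −1.16 and −0.64 on the lymphedema arrays, 1.08, −0.03 and 0.35 on the sham arrays and 1.18, 0.57 and 0.89 on the normal arrays. Every lymphedema array lay below every sham and every normal array, and sham overlapped normal. Lymphedema minus normal was −1.61 (SE 0.297, n = 3 arrays a state), a ratio 3.05-fold lower, and only 6 of the 8644 genes had a more negative difference. The ratio was 2.29-fold lower in lymphedema than in sham skin, a log2 difference of −1.19 (SE 0.297), and 7 genes were more negative there. That difference had an unadjusted p of 0.00189 and an adjusted p of 0.442 (limma, Benjamini-Hochberg over all genes), so it did not pass. Sham minus normal was −0.41 (SE 0.297, adjusted p = 0.785).

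Alox12b encodes the lipoxygenase that oxidises linoleate in barrier acylceramides. It gave −0.25, 0.17 and −0.05 in lymphedema, 0.34, 0.84 and 0.45 in sham and 1.16, 0.82 and 0.49 in normal skin. The 3 lymphedema arrays again lay below all 6 others, and sham and normal overlapped. The lymphedema minus normal difference was −0.86 (SE 0.220), 1.82-fold lower, with 104 of 8644 genes more negative. Against sham skin the difference was −0.58 (SE 0.220, unadjusted p = 0.0216, adjusted p = 0.607, limma), and sham minus normal was −0.28 (adjusted p = 0.805). Alox12e and Alox12b were each measured by a single clone, so no second clone checks either value.

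**Figure D1:**
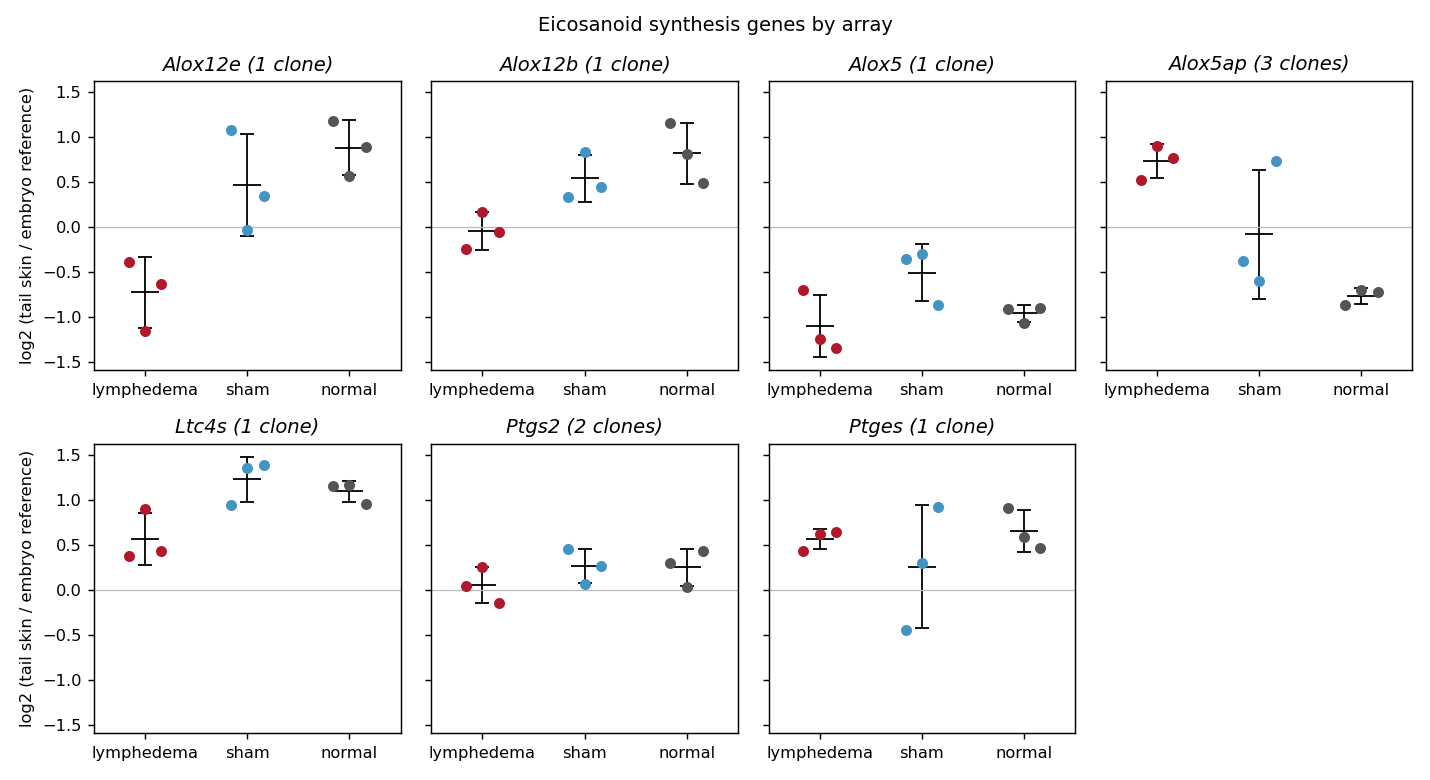
Log2 ratio of tail skin over embryo reference (vertical axis) for the 7 measured genes, by state. Points are the 3 arrays of each state in array order, horizontal marks the mean and bars the SD, and Alox12e, Alox12b and Ltc4s have all 3 lymphedema arrays below every sham and normal array.

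Markers of differentiated keratinocytes, the cells known for these enzymes, had a list median near 0 in lymphedema minus normal. A list of differentiated keratinocyte genes had 15 measured members, of which 0 passed the test in lymphedema minus normal (percent called over all genes, either direction, 3.44%). In that contrast 8 were above 0 (background 62.0%) and the median difference was 0.03, against 0.10 over all genes. Against sham skin 4 of the 15 were above 0 (background 58.9%) and 0 passed. The median difference of the list there was −0.08, against 0.06 over all genes. Its median log2 ratio ran from 1.55 to 2.10 on the lymphedema arrays, from 1.77 to 2.35 on the sham arrays and from 1.78 to 2.04 on the normal arrays. Krt10, a keratin of suprabasal cells, differed by 0.09 between lymphedema and normal skin, Lor (loricrin) by −0.33, Ivl (involucrin) by 0.03 and Dsc1 (desmocollin) by −0.10. Krt1, Krt2 and Flg, 3 further defining markers, had no annotated feature. The 6 basal keratinocyte genes had a median difference of 0.21 and the 6 sebaceous gland genes one of −0.40, with Dgat2, which makes triacylglycerol, lower (−0.88, adjusted p = 0.0339, limma, background for lower genes 0.602%) and no other sebaceous gene past the test. The Dgat2 call was lost with the array set or the replicate number as a block. It was also lost when normal array 1 or 2 or any lymphedema array was left out. The 8 hair follicle genes had a median difference of 0.36, with 6 of 8 above 0. Krt27 and Krt71, keratins of the inner root sheath, were at 0.86 and 0.74 without passing. Krtap13, a hair keratin associated protein, was the single follicle gene that passed and lay the other way (−1.73, adjusted p = 0.00593), a call lost with the array set as a block. Fewer cells of a type and less RNA per cell cannot be told apart in whole skin.

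Other lipoxygenases and further genes of the epidermal branch were sparsely measured. Alox15, the neighbour of Alox12e, gave 1.68, 1.13 and 1.53 in lymphedema, 1.54, 1.26 and 1.02 in sham and 1.96, 1.63 and 1.93 in normal skin, and its lymphedema minus normal difference was −0.39 (adjusted p = 0.318, limma). Alox12, the platelet-type lipoxygenase, had a value on 6 arrays only: 0.585 on lymphedema array 1, 0.919 and 0.380 on sham arrays 1 and 2, and 1.35, 1.10 and 1.15 on the normal arrays. Aloxe3, which acts after Alox12b on the same lipids, had values on 8 arrays: 1.33, 0.456 and 0.598 in lymphedema, 0.851, 1.81 and −0.0720 in sham and 0.115 and 0.744 in normal arrays 2 and 3. Its lymphedema and normal arrays overlapped, and the lowest value was that of sham array 3. Sdr9c7, Elovl4 and Abhd5, genes of acylceramide synthesis and oxidation, had lymphedema minus normal differences of −0.34, −0.26 and −0.11, and none of the 3 passed the test. Against sham skin they were at −0.66, −0.47 and −0.06, and again none passed. Sdr9c7 was at 1.19 to 1.43 in lymphedema and 1.90 to 2.09 in sham skin (unadjusted p = 0.00774, adjusted p = 0.505, limma). Tgm1 gave 0.0350, 0.115 and −0.315 in lymphedema, 0.579 and 0.904 on sham arrays 2 and 3 and 1.07 on normal array 3. Cers3 ran from 0.941 to 1.61 in lymphedema, 1.265 to 2.19 in sham and 1.44 to 1.56 on normal arrays 2 and 3.

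The leukotriene genes did not move together. Alox5ap, the membrane protein that presents arachidonate to the 5-lipoxygenase, was higher in lymphedema, while Alox5 itself overlapped normal skin and Ltc4s was lower. Averaged over its 3 complete clones, Alox5ap gave 0.53, 0.90 and 0.77 in lymphedema, −0.38, −0.60 and 0.74 in sham and −0.86, −0.70 and −0.72 in normal skin. All lymphedema and all sham arrays lay above the 3 normal arrays, and sham array 3 lay among the lymphedema arrays. Lymphedema minus normal was 1.50 (SE 0.295), a 2.82-fold higher ratio, with 53 of 8644 genes more positive. Lymphedema minus sham was 0.81 (SE 0.295, unadjusted p = 0.0182, adjusted p = 0.573, limma), and without sham array 3 it was 1.22 with an adjusted p of 0.0160. That fit leaves out the sham array with the highest Alox5ap, so its lower p is no support for a difference. In it 79 of 8758 genes were higher and 19 lower, against 1 and 1 with all arrays. Sham minus normal was 0.68 (unadjusted p = 0.0404, adjusted p = 0.590), and without sham array 3 it was 0.27 (adjusted p = 0.440).

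The 4 clones named Alox5ap, numbered in the order of the array's feature list, were not alike. Clone 4 gave 2.23, 2.00 and 1.72 in lymphedema, 1.30, 0.49 and 1.92 in sham and −0.38, −0.30 and −0.10 in normal skin, a lymphedema minus normal difference of 2.25. Clone 1 gave 0.64, 1.32 and 1.34 in lymphedema, −0.41, −0.31 and 1.20 in sham and −0.97, −0.74 and −0.38 in normal skin, a difference of 1.80. Both had all lymphedema arrays above all normal arrays. Clone 2 gave −1.29, −0.61 and −0.75 in lymphedema, −2.02, −1.98 and −0.90 in sham and −1.24, −1.05 and −1.70 in normal skin, a difference of 0.45 with overlapping arrays. Clone 3 had a value on 7 arrays and a difference of 0.29, with lymphedema at 0.70 to 1.09, sham at 0.72 and 1.45 and normal at 0.64 and 0.70. In sham minus normal, clone 4 was higher by 1.50 (adjusted p = 0.172, limma over all complete features), whereas clone 2 was at −0.31. The gene's value depends on which clone stands for it, and why the clones differ was not tested.

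**Figure D2:**
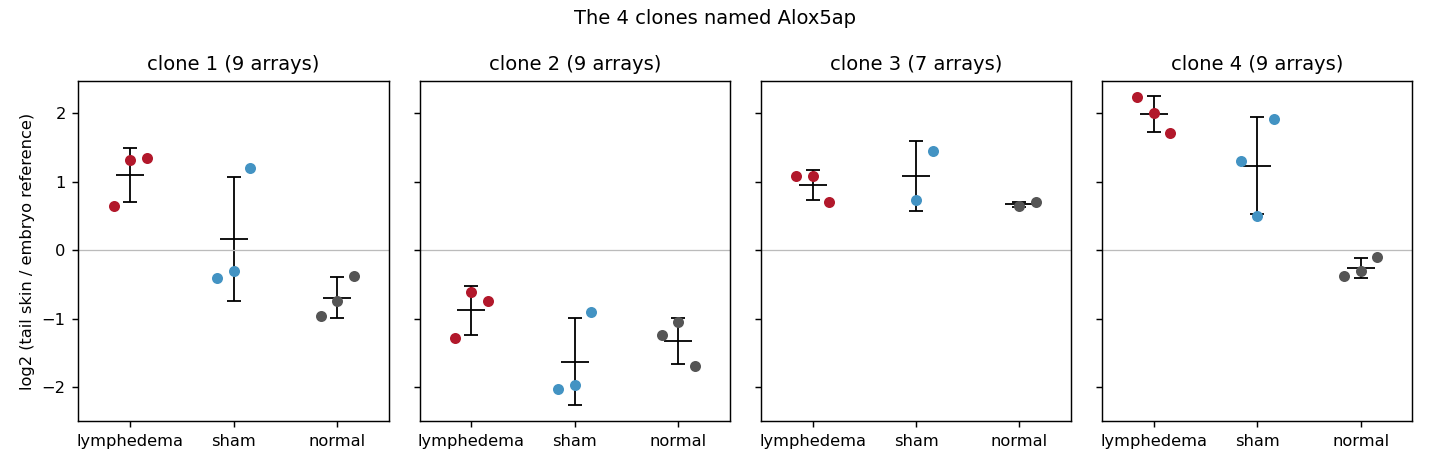
Log2 ratio of tail skin over embryo reference for each of the 4 clones named Alox5ap, by state. Points are arrays with a value, horizontal marks the mean and bars the SD over them. Clones 1 and 4 separate lymphedema from normal skin, and clones 2 and 3 do not.

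Alox5, the enzyme that starts leukotriene synthesis, gave −0.70, −1.24 and −1.35 in lymphedema, −0.35, −0.30 and −0.87 in sham and −0.90, −1.07 and −0.90 in normal skin. Lymphedema overlapped both other states, and all 3 sham arrays lay above the 3 normal arrays. Lymphedema minus normal was −0.14 (SE 0.220), lymphedema minus sham was −0.59 (SE 0.220, unadjusted p = 0.0207, adjusted p = 0.607, limma) and sham minus normal was 0.45 (SE 0.220, unadjusted p = 0.0636, adjusted p = 0.651). Ltc4s, which joins the leukotriene intermediate to glutathione, gave 0.37, 0.90 and 0.43 in lymphedema, 0.94, 1.36 and 1.39 in sham and 1.16, 1.17 and 0.96 in normal skin. Its 3 lymphedema arrays lay below all 6 others. The differences were −0.53 (SE 0.201) from normal and −0.66 (SE 0.201, unadjusted p = 0.00701, adjusted p = 0.505, limma) from sham skin, while sham minus normal was 0.13 (adjusted p = 0.917).

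Array by array, Alox5ap kept close to the leukocyte genes and the other leukotriene genes did not. Against the mean of the normal arrays, Alox5ap stood at 1.29, 1.67 and 1.53 on the lymphedema arrays and at 0.38, 0.16 and 1.50 on the sham arrays. The leukocyte list's median stood at 1.11, 1.45 and 1.27 on the lymphedema arrays and at 0.45, −0.30 and 1.10 on the sham arrays. Both were high on lymphedema and on sham array 3. Of the 13 measured leukocyte genes 11 were higher in lymphedema than in normal skin (percent called higher over all genes, 2.83%), among them Coro1a (1.86), Lcp1 (2.04) and Fcer1g (2.48), and Laptm5 (1.09) did not pass. Of 15 macrophage genes 8 were higher, of 11 neutrophil genes 6 were higher, and of 8 mast cell genes 1 was higher. None of these calls held with the array set as a block, where 0 of all 8644 genes passed. The leukocyte count was also 0 without normal array 1 or 2 or without lymphedema array 1 or 2, 3 without normal array 3 and 2 without lymphedema array 3. The leukocyte list's median difference was 1.25, 1.38 with the array set as a block and 1.21 to 1.38 with an array left out. The macrophage and mast cell list medians ran from 0.865 to 1.07 in lymphedema, −0.509 to 0.878 in sham and −0.501 to −0.332 in normal skin for macrophages, and from −0.512 to −0.409, −1.49 to −0.293 and −1.26 to −1.16 in the same states for mast cells. The mast cell proteases Cpa3, Mcpt4 and Cma1 had lymphedema minus normal differences of 0.58, 0.36 and 0.76 and did not pass. Kit, the next on that list, was at −0.05. Of the 8 mast cell genes 6 lay above 0 (background 62.0%), and the 1 called higher was Srgn (2.14). What part these cells had in the values of Alox5ap, Alox5 and Ltc4s was not tested. Ptprc, the pan-leukocyte antigen, had no annotated feature.

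**Figure D3:**
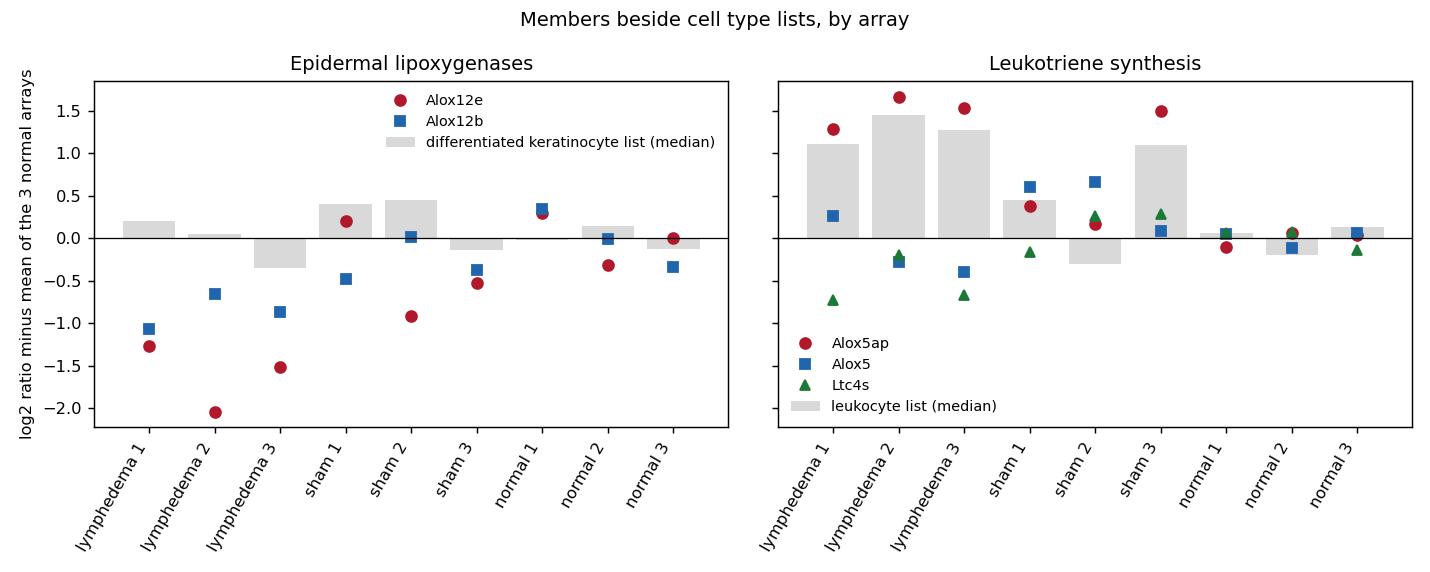
Log2 ratio minus the mean of the 3 normal arrays, for each of the 9 arrays. The left panel sets Alox12e and Alox12b against the median of 15 differentiated keratinocyte genes (bars), and the right panel sets Alox5ap, Alox5 and Ltc4s against the median of 13 leukocyte genes (bars). Alox5ap is high where the leukocyte bars are high, including sham array 3 at 1.50. On the 3 lymphedema arrays Alox12e is at −1.26, −2.04 and −1.52, with keratinocyte bars of 0.20, 0.05 and −0.35.

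The epidermal and leukotriene genes were set against each other on each array. The mean of Alox12e and Alox12b minus the mean of Alox5, Alox5ap and Ltc4s was −0.38, −0.68 and −0.29 on the lymphedema arrays, 0.64, 0.25 and −0.02 on the sham arrays and 1.38, 0.89 and 0.91 on the normal arrays. The 3 states did not overlap, with lymphedema lowest, sham between and normal highest. Group means differed by −1.51 between lymphedema and normal, by −0.74 between lymphedema and sham and by −0.77 between sham and normal. Most of the first difference came from the epidermal pair, whose mean differed by −1.24 between lymphedema and normal skin. The leukotriene mean was 0.07 in lymphedema, 0.22 in sham and −0.21 in normal skin, highest in sham skin, so its differences were 0.28 between lymphedema and normal, −0.15 between lymphedema and sham and 0.42 between sham and normal. The epidermal mean was −0.38 in lymphedema, 0.51 in sham and 0.85 in normal skin. The leukotriene mean combines genes that differed in opposite directions. Alox5ap minus Ltc4s was 0.16, 0.00 and 0.34 in lymphedema, −1.32, −1.96 and −0.65 in sham and −2.02, −1.87 and −1.68 in normal skin, again without overlap between lymphedema and the other states. These sums were formed with the members' values known and carry no test.

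The prostanoid genes showed no separation of the states. Ptgs2, the inducible cyclooxygenase, averaged over 2 clones gave 0.04, 0.26 and −0.14 in lymphedema, 0.46, 0.07 and 0.27 in sham and 0.30, 0.03 and 0.43 in normal skin. The states overlapped, and the differences were −0.20 (SE 0.189) from normal skin, −0.21 (adjusted p = 0.822, limma) from sham skin and 0.01 (adjusted p = 0.988) for sham minus normal. Its clones pointed in opposite directions in lymphedema minus normal. The first gave −1.24, −0.67 and −1.08 in lymphedema, −0.61, −1.50 and −0.40 in sham and −1.51, −1.27 and −0.85 in normal skin, a difference of 0.21. The second gave 1.33, 1.19 and 0.79 in lymphedema, 1.52, 1.65 and 0.94 in sham and 2.11, 1.32 and 1.72 in normal skin, a difference of −0.61. Ptges, the prostaglandin E synthase coupled to it, gave 0.43, 0.62 and 0.64 in lymphedema, −0.44, 0.29 and 0.92 in sham and 0.92, 0.59 and 0.46 in normal skin. Its arrays overlapped in every contrast, with differences of −0.09 (SE 0.290) from normal, 0.31 (adjusted p = 0.836) from sham and −0.40 (adjusted p = 0.786) for sham minus normal. The sham arrays of Ptges spread most, from sham array 1 at the bottom to sham array 3 at the top.

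Counted over the 7 genes, 1 lay above 0 (background 62.0%) and 6 below in lymphedema minus normal, with a median of −0.20 against 0.10 over all genes. Arrays did not overlap for 1 higher gene (background 23.6%) and 3 lower genes (background 10.2%). In lymphedema minus sham 2 lay above 0 (background 58.9%) and 5 below, with a median of −0.58 against 0.06 over all genes. Arrays did not overlap for 3 lower genes (background 3.69%) and 0 higher genes (background 6.63%). By limma 0 of the 7 passed there (background 0.0231%), and 5 had an unadjusted p under 0.05, against 7.44% of all genes. In sham minus normal 4 lay above 0 (background 59.6%) and 3 below, with a median of 0.01 against 0.06 over all genes, 2 were higher without overlap (background 9.72%) and 0 lower (background 3.09%). By limma 0 passed (background 0.00%) and 1 had an unadjusted p under 0.05, against 7.92% of all genes. SAM, the permutation method of the study's methods, also called 0 of the 7 in both contrasts. Lymphedema minus sham uses the lymphedema arrays, and sham minus normal the normal arrays, through which the genes were chosen, so neither is independent of that choice.

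**Figure D4:**
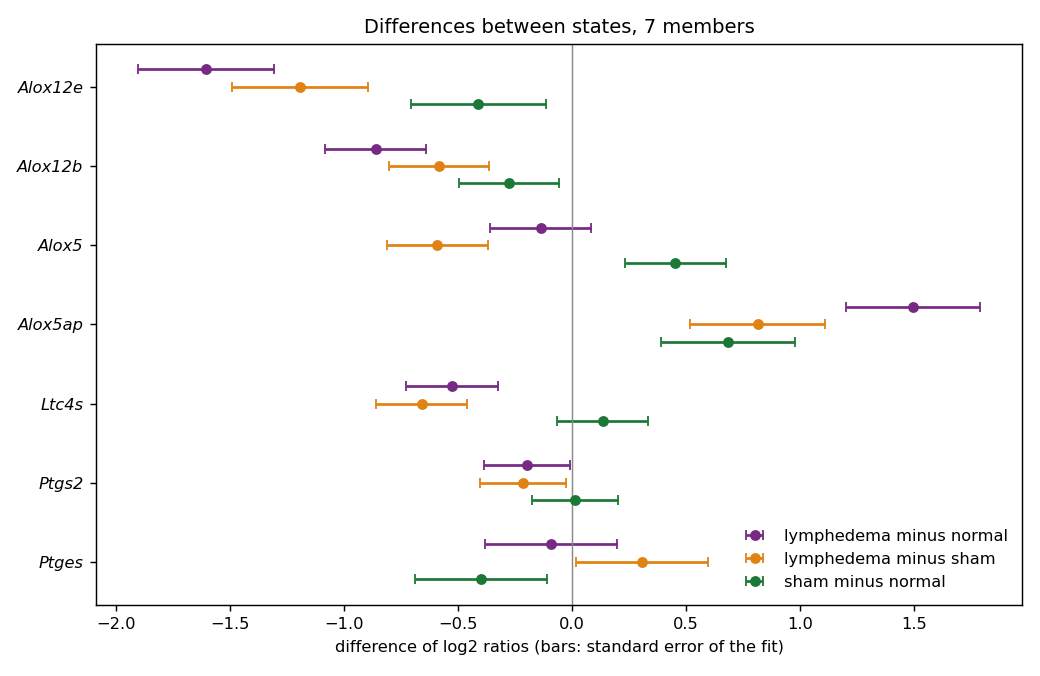
Differences of mean log2 ratio between states for the 7 genes, with bars for the standard error of the limma fit (3 arrays a state). Alox12e and Alox12b are negative in all 3 contrasts and Alox5ap is positive in all 3, while Alox5 and Ltc4s are negative against sham skin (−0.59 and −0.66) and above 0 in sham minus normal.

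Within array sets the main differences kept their sign. In the set of lymphedema array 1 and the normal arrays, lymphedema minus normal was −1.26 for Alox12e, −1.07 for Alox12b, 1.29 for Alox5ap, −0.72 for Ltc4s and 0.26 for Alox5. Alox5 thus changed sign, and the lymphedema side of each value is 1 array. In the set of lymphedema arrays 2 and 3 and the sham arrays, lymphedema minus sham was −1.37 for Alox12e, −0.48 for Alox12b, 0.92 for Alox5ap, −0.56 for Ltc4s and −0.79 for Alox5.

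Of 108 further listed genes, 51 had an annotated feature, 11 of them with incomplete features alone, and 40 were tested, and 21 of these (background 62.0%) lay above 0 in lymphedema minus normal, with a median of 0.07 against 0.10 over all genes. Of the 40, 1 passed the test, against 3.44% of all genes. That gene, Cbr2, a carbonyl reductase, gave 0.57, 0.99 and 0.80 in lymphedema, 0.24, −0.24 and 0.70 in sham and −0.22, −0.27 and −0.03 in normal skin. Lymphedema lay above normal without overlap and reached 0.96 over it (SE 0.234, adjusted p = 0.0494, limma), a call that 6 of 18 alternative fits kept. In lymphedema minus sham and in sham minus normal 0 of the 40 passed by limma, and SAM called 0 in both. An unadjusted p under 0.05 was reached by 4 of them in lymphedema minus sham (background 7.44%) and by 5 in sham minus normal (background 7.92%).

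Named by size of difference within each group, the genes that release arachidonate were led by Pla2g6, a calcium-independent phospholipase, at −0.58 in lymphedema minus normal, then Pla2g1b (0.40) and Pla2g12b (0.34). Of the further leukotriene enzymes, 4 of 4 lay above 0 (background 62.0%), whereas Ltc4s (−0.53) and Alox5 (−0.14) lay below. The 4 were Mgst3 (0.40), Ptgr1, which oxidises leukotriene B4 (0.36), Lta4h, which makes it (0.27), and Mgst2 (0.24). Ltb4r1, its receptor, was at 0.66 (adjusted p = 0.144), and Cyp4f14, a hydroxylase of the same lipid, at 0.98 (adjusted p = 0.120). None of these passed by limma. Abcc1, which exports leukotriene C4, was at −0.64 and Ptgr2, a prostaglandin reductase, at 0.47. Of the prostanoid receptor genes Ptger4 was at −0.40 and Ptger2 at −0.30, and the regulator Ptgfrn at 0.60. Cmklr1, the chemerin receptor, was the most negative at −0.71 (adjusted p = 0.0814). It gave 0.86, 0.51 and 0.54 in lymphedema, 0.42, 0.44 and 0.95 in sham and 1.46, 1.44 and 1.13 in normal skin, so both operated states lay below normal skin without overlap. Anxa1 (annexin A1) was at 0.36 and Cyp2j6, an epoxygenase, at −0.47, with Cyp4f16, a relative of Cyp4f14, at 0.385.

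**Figure D5:**
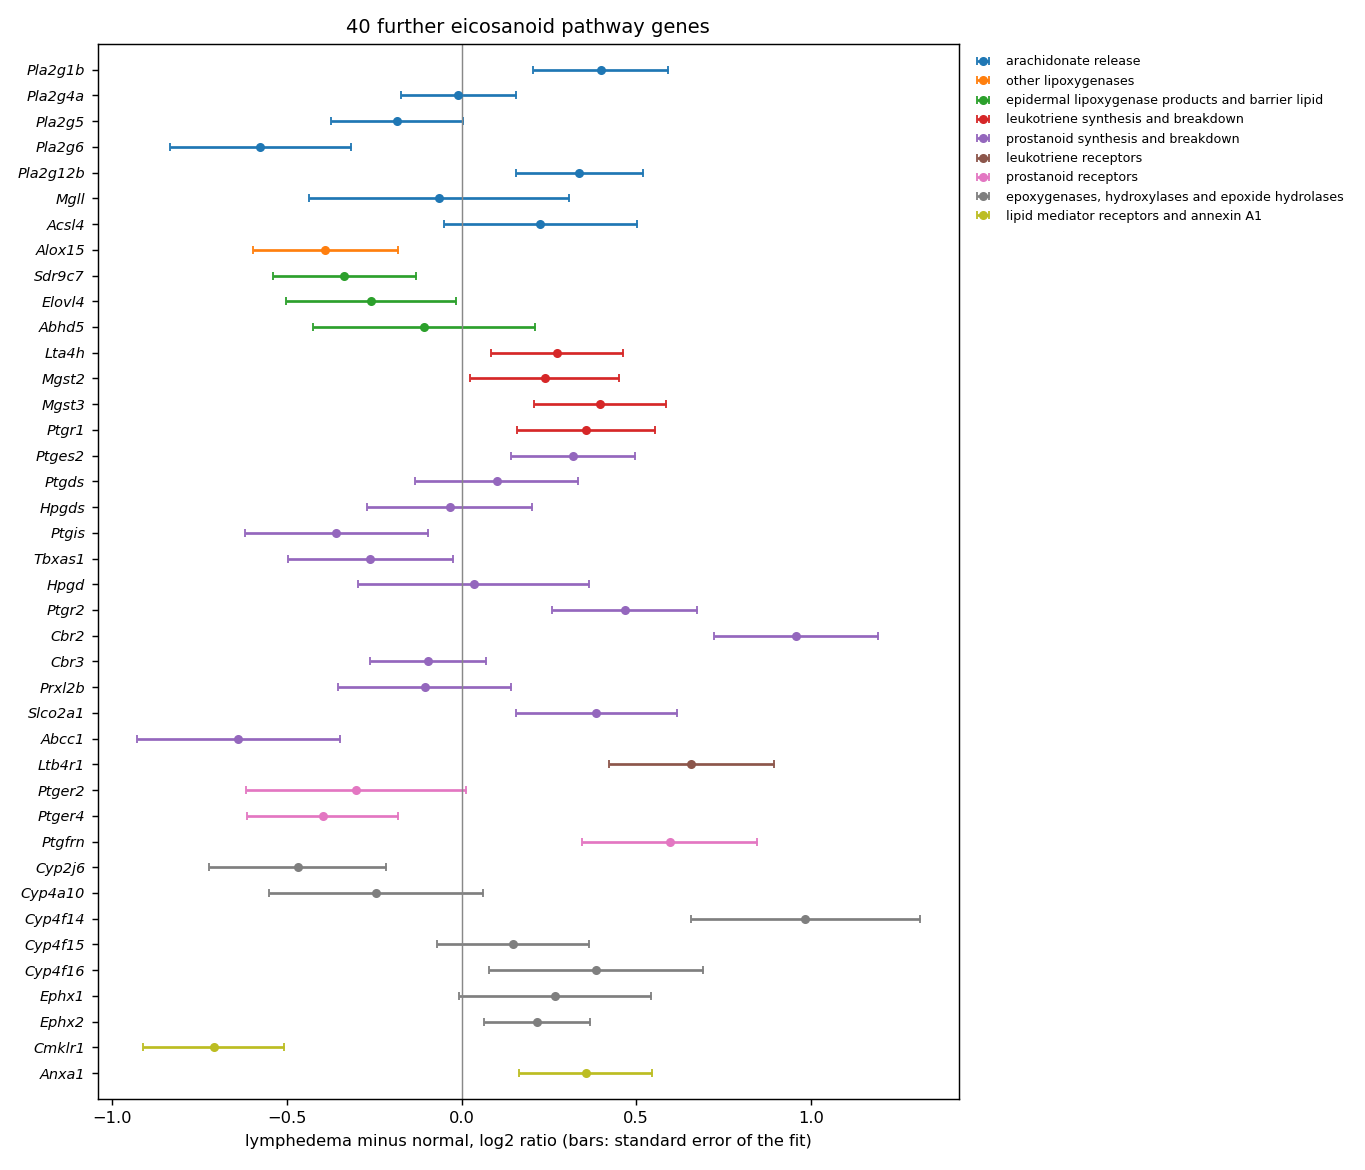
Lymphedema minus normal difference of log2 ratio for the 40 tested genes of the wider pathway, coloured by group, with bars for the standard error of the limma fit. Cbr2 (0.96) is the gene that passed and Cmklr1 (−0.71) is the most negative.

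Over the 9 arrays the named genes most like Alox5ap by Pearson's r were Rarres2 (0.996), which encodes chemerin, Fcer1g (0.991), an Fc receptor subunit, Lgmn (0.990), a lysosomal protease, Cyba (0.985), a subunit of the phagocyte oxidase, and Hsd3b7 (0.982), an enzyme of bile acid synthesis. Those most like Alox12e were Arl14 (0.967), Arrdc2 (0.942), Tmem225 (0.936), Supt20 (0.930) and Slx1b (0.930). The points are 9 arrays that fall in 3 states and share the embryo reference, and the values are a description.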

How the data were processed

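Gene expression was measured on 9 2-colour cDNA arrays. The authors extracted features with GenePix, subtracted background and normalised the dyes, and deposited 1 log2 ratio for each feature and array, which holds embryo reference over tail skin, so the sign was turned. The labels and the methods give the dyes the opposite way round, and known embryo and adult skin genes settled the direction. Depth has no meaning for these arrays, and the number of arrays limits the precision. Each array was centred on its median, 30702 features measured on each of the 9 arrays were kept, clones of 1 gene were averaged, and limma 3.58.1 in R 4.3.3 was fitted to 8644 genes over all 9 arrays, with Benjamini-Hochberg adjustment and a threshold of 0.05. Features named by several genes (953) or by none (20993) were not used for genes. On simulated data for lymphedema minus normal (8644 genes), 59% of 2-fold and 92% of 4-fold changes were recovered, with 151 true and 16 false calls. These rates do not extend to lymphedema minus sham or sham minus normal, the contrasts in which members were tested. Members, gene lists, motifs and tests were chosen with earlier results of these data known. Genes named outside the members were the 3 with the greatest difference per pathway group and any that passed. Up to 4 of a cell list were named in list order, as were the 5 most like Alox12e and Alox5ap. Single genes of the sebaceous, follicle and mast cell lists that passed were added after their values were seen. So were Mgst2, the incompletely measured Alox12 and Aloxe3, and Krt27, Krt71, Tgm1 and Cers3. Alternatives were other scalings, filters, clones, tests, blocks and each array left out, and counting the cell list calls under them was added after the data were seen. Replicates were pools, so p-values measure the spread between pools. Promoters were taken from RefSeq (GRCm38.p6).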

Additional observations from a re-analysis of the deposited data

How the results depend on the processing

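Over 18 alternative fits, the lymphedema minus normal difference stayed negative for Alox12e (−1.78 to −1.26), Alox12b (−1.07 to −0.69) and Ltc4s (−0.72 to −0.43) and positive for Alox5ap (1.16 to 1.80). Leaving out arrays one at a time kept the epidermal minus leukotriene difference between −1.59 and −1.35. Some signs turned, none of them of a called difference. Ptgs2 in sham minus normal was −0.00683 without centring, −0.0686 after quantile normalization, −0.00142 with the array set as a block and −0.0982 to 0.112 with an array left out, and Ptges in lymphedema minus sham was −0.0423 to 0.639 with an array left out. With the array set as a block, sham minus normal was 0.10 for Alox12e and −0.16 for Ltc4s. With 1 clone per gene, Ptgs2 in lymphedema minus normal was 0.21, and with the array set as a block Alox5 was 0.26. Ptges in lymphedema minus normal ran from −0.223 to 0.0377, above 0 in 1 of the 18 fits. The count of members called in lymphedema minus sham was 0 in every alternative except without sham array 3, where 1 gene, Alox5ap, passed, and 79 genes in all were higher and 19 lower. The count of wider pathway genes called in lymphedema minus normal was 0 without centring, with 2 of 3 values per state, imputed or not, with 1 clone per gene, with the replicate number as a block and with the array set as a block. It was 2 with arrays scaled to one spread (Cbr2 and Ltb4r1) and with only the arrays compared (Cbr2 and Cmklr1), and 0 to 2 with an array left out. By SAM it was 8 of the 40, where SAM called 1421 higher and 176 lower of all 8644 genes in this contrast. After each state's mean was subtracted from every gene, arrays of different states that share a replicate number correlated at −0.244 to 0.279. Those with different numbers correlated at −0.337 to 0.277, so the numbers were not taken as pairs. With that block the genes called over the whole table in lymphedema minus normal numbered 116 higher and 29 lower, against 245 and 52 without it, and the members called in the other 2 contrasts stayed at 0. With only the arrays of both states in the fit these were 614 and 228. They were 0 and 0 with the array set as a block, and among fits without 1 array they were lowest at 7 and 2 without lymphedema array 2, 9 and 3 without normal array 2 and 10 and 3 without normal array 1, and highest at 488 and 140 without sham array 3. No normalization moved the median of all genes in lymphedema minus normal by over 0.1 from its 0.10. The cause of these changes was not tested.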
